A study of Mus musculus with 15 samples.

Results

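Tfrc, the transferrin receptor, and 6 further genes of cellular iron handling (Fth1, Ftl1, Slc40a1, Slc11a2, Aco1 and Ireb2) were followed across sorted nuclei of the mouse ventral tegmental area. The 7 members were taken by gene symbol from the 35976 genes of the count table, and each symbol matched 1 row. The record does not say on which measured values the members were selected. Tfrc ranked 1 among 19060 tested genes by unadjusted p between abstinence from cocaine and food training, so the members are treated as chosen by their counts in that contrast, which is described with no test.

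Cells take up iron by binding transferrin at the transferrin receptor, drawing the complex into endosomes and pumping the released iron into the cytosol through the transporter encoded by Slc11a2. Iron that is not used at once is stored in ferritin, a shell of heavy (Fth1) and light (Ftl1) chains, or leaves the cell through ferroportin (Slc40a1). The iron regulatory proteins encoded by Aco1 and Ireb2 bind hairpins called iron-responsive elements when iron is scarce, which stabilises Tfrc mRNA and holds back translation of ferritin and ferroportin mRNA. In dopamine neurons iron also serves tyrosine hydroxylase, the iron-dependent enzyme that makes the dopamine precursor.

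The hairpins are shown because they are the feature that ties the messages of uptake, storage and export to the same regulators. A search of the protein-coding transcripts for the loop CAGTGN, closed by 5 base pairs (G-T pairs allowed) and preceded by an unpaired C, on the transcript strand only, found 4 sites in Tfrc and 1 each in Fth1, Ftl1 and Slc40a1. Capitals mark the 6 loop bases, and each sequence runs 5′ to 3′ along the transcript (GENCODE transcripts, GRCm38).
Tfrc site 1: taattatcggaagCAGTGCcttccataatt
Tfrc site 2: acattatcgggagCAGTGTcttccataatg
Tfrc site 3: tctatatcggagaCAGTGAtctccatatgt
Tfrc site 4: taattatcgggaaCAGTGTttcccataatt
Fth1: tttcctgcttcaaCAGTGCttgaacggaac
Ftl1: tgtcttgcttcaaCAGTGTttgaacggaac
Slc40a1: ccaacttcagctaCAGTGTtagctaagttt

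The Tfrc sites lie in its 3′ UTR on the plus strand, at chr16:32631218-32631247, chr16:32631597-32631626, chr16:32631662-32631691 and chr16:32631709-32631738. The other sites lie in 5′ UTRs, at chr19:9982731-9982760 on the plus strand for Fth1, chr7:45459779-45459808 on the minus strand for Ftl1 and chr1:45925465-45925494 on the minus strand for Slc40a1. No match was found in the transcripts of Slc11a2, Aco1 or Ireb2, which says only that these letters and pairs are not there. Of 21877 protein-coding genes, 294 (1.34%) held such a match, while CAGTGN alone was in 94%. A match is a description of sequence and not a measured site. In RefSeq's GRCm38.p6 annotation the genes span chr16:32608896-32632794 (Tfrc), chr19:9980600-9985111 (Fth1), chr7:45457944-45459886 (Ftl1), chr1:45908070-45926532 (Slc40a1), chr15:100387898-100424209 (Slc11a2), chr4:40143265-40199009 (Aco1) and chr9:54862658-54912534 (Ireb2).

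All libraries came from male mice of 8 to 12 weeks, heterozygous for B6.SJL-Slc6a3tm1.1(cre)Bkmm/J, which expresses Cre from the dopamine transporter locus. All had received AAV5-DIO-KASH-HA, a Cre-dependent tag of the nuclear envelope, in the ventral tegmental area 14 days before training, and all were trained for food over 7 days. Dopaminergic nuclei were those sorted for the HA tag, and the non-dopaminergic sort held every nucleus without it, glia included. The dopaminergic groups were food-trained (n = 4), cocaine maintenance (n = 3; 5 daily 1-hour sessions at 0.3 mg/kg per infusion, then 10 at 1.0 mg/kg) and abstinence, labelled craving (n = 4; the same cocaine sessions, then 21 days in the home cage). The non-dopaminergic group was food-trained only (n = 4), and each library pooled tissue from 2 mice. No group analysed here spent the 21 days without earlier cocaine, so cocaine history and elapsed time cannot be told apart in abstinence.

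Library totals ran from 25813697 to 59046618 counts. The dopamine transporter Slc6a3 matched the labels, at 2990 ± 1050, 2560 ± 599 and 2630 ± 690 CPM (counts scaled to a common library total; mean ± SD) in food-trained, maintenance and abstinence dopaminergic nuclei and 92.8 ± 18.4 in non-dopaminergic nuclei. The summed level of 10 oligodendrocyte markers was 1170 to 2850 CPM in the dopaminergic libraries and 9760 to 24500 CPM in the non-dopaminergic ones. The 3 maintenance libraries stood apart in how their counts followed transcript GC content, with slopes of -0.0376 to -0.0224 log2 CPM per percent GC against -0.0167 to 0.0204 in the other dopaminergic libraries. Non-dopaminergic replicate 2 had a slope of -0.0248, where its 3 partners had 0.0209 to 0.0322. In sorted pools, fewer cells of a type and less RNA per cell cannot be told apart.

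Tfrc was the member whose level separated a group from its neighbour in the order of means. In abstinence, dopaminergic nuclei held 307, 227, 150 and 277 CPM of Tfrc in replicates 1 to 4. Maintenance libraries held 125, 128 and 149 CPM, and food-trained dopaminergic libraries 124, 87.5, 57.5 and 91.2 CPM. Every abstinence library thus lay above every other dopaminergic library, although abstinence replicate 3 was only just above the highest maintenance library. The summed level of 7 erythroid markers, globins among them, separated the same groups the other way, at 178 to 266 CPM in abstinence, 280 to 518 CPM in maintenance and 339 to 1090 CPM after food training. It was 156 to 343 CPM in non-dopaminergic nuclei. Of these markers Slc4a1 was at 0 in every dopaminergic library, and Klf1 in every food-trained dopaminergic library. The part of erythroid RNA in the Tfrc levels was not tested. Non-dopaminergic nuclei held 85.7, 164, 125 and 158 CPM and overlapped all 3 dopaminergic groups. The order of means was abstinence (241 ± 68.6), maintenance (134 ± 12.8), non-dopaminergic (133 ± 35.9) and food-trained dopaminergic (90 ± 27.1), and below abstinence each neighbour overlapped the next.

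**Figure D1:**
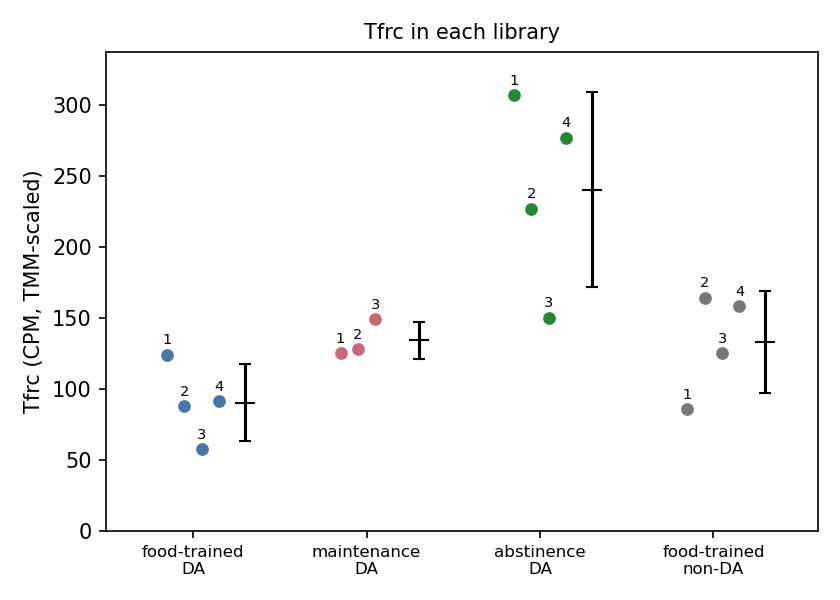
Tfrc level (CPM scaled by TMM) in each of the 15 libraries, numbered by replicate, with the group mean ± SD beside the points. The 4 abstinence libraries lie between 150 and 307 CPM, above all 7 other dopaminergic libraries.

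Between abstinence and food training, the contrast that chose the members, Tfrc was 2.66-fold higher in abstinence (log2 fold change 1.41, SE 0.28). Slc11a2, the transporter that moves iron out of the endosome, was at 140, 123, 133 and 92.2 CPM in abstinence and at 71.5, 80.5, 41.9 and 96.1 CPM after food training. Abstinence replicate 4 lay below food-trained replicate 4, so these groups overlapped, and the fitted log2 difference was 0.74 (SE 0.34). Both ferritin chains had fitted differences below 0, at -0.36 (SE 0.23) for Fth1 and -0.51 (SE 0.28) for Ftl1. Without food-trained replicate 1, the highest of its group for both chains, they were -0.21 and -0.17. Slc40a1 stood at 0.77 (SE 0.81), Aco1 at 0.38 (SE 0.58) and Ireb2 at 0.38 (SE 0.38). Tfrc was the 1 member of 7 whose groups did not overlap, where 3.34% of all 19060 genes did not. By edgeR's adjusted p, 0% of all genes passed in this contrast, and nothing is read from the members' share.

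**Figure D2:**
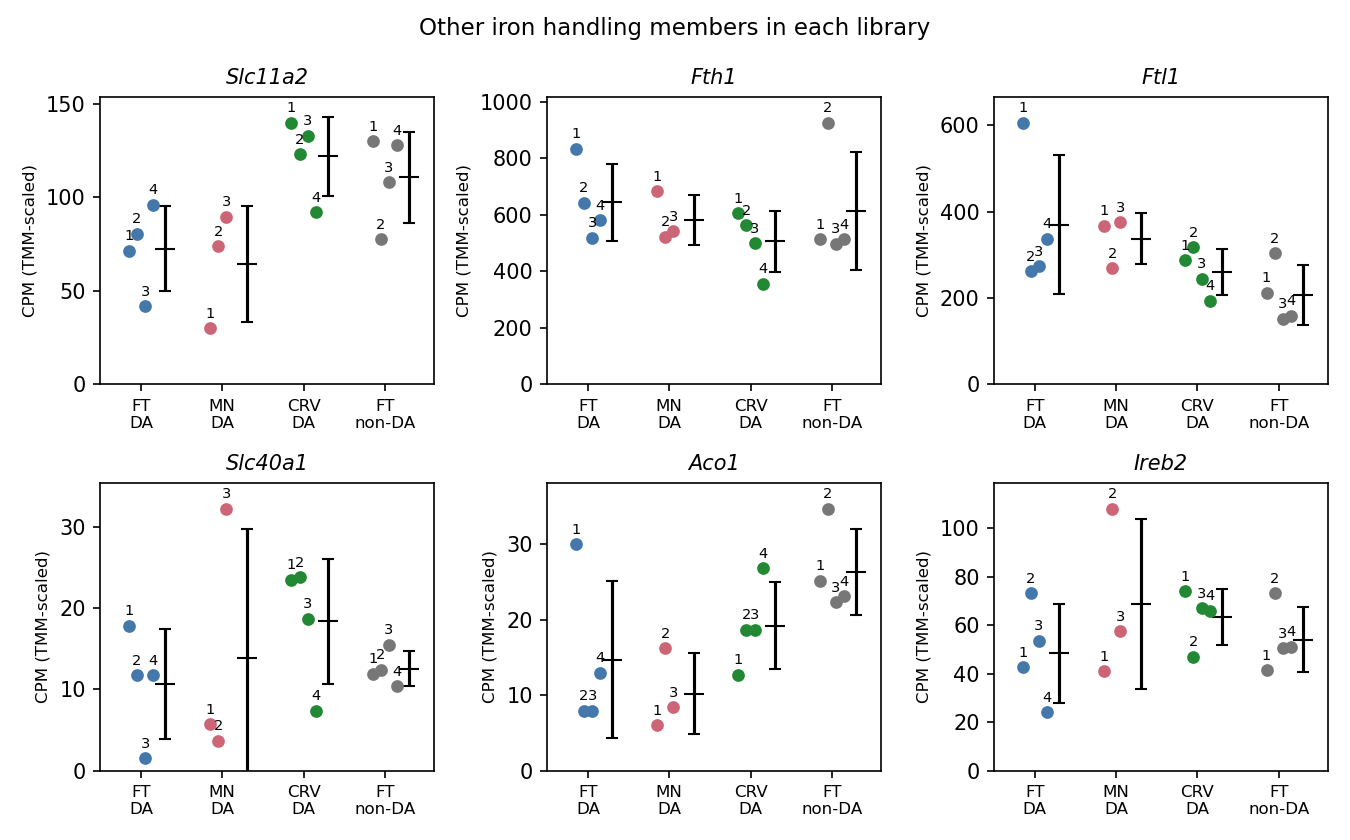
Level (CPM scaled by TMM) of the 6 other members in each of the 15 libraries, 1 panel per gene with its own axis from 0, and the group mean ± SD beside the points (an SD bar that would pass below 0 ends at the axis). FT stands for food-trained, MN for maintenance, CRV for abstinence and DA for dopaminergic. Neighbouring groups in the order of means overlap for all 6 genes.

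Maintenance was compared with food training at the end of the cocaine sessions. No sessions over that period are given for the food-trained mice, so cocaine and elapsed time cannot be told apart here either. The comparison reuses the food-trained dopaminergic libraries of the contrast that chose the members, as does the comparison between the sorted populations, so neither is independent of that choice. Tfrc was higher in all 3 maintenance libraries than in any food-trained one, by the margin between 125 and 124 CPM at the closest pair. The log2 difference was 0.57 (SE 0.3), and it did not pass edgeR's quasi-likelihood test (adjusted p = 0.481). With the GC slopes corrected it was 0.2, and Tfrc transcripts are 39.8% GC. All 3 maintenance libraries had low GC slopes, so among the dopaminergic libraries that feature and the maintenance stage cannot be told apart. Of the 7 members 0 passed in edgeR (0.131% of all genes did), 0 had an unadjusted p under 0.05 (2215 of 19060 genes did), and 0 passed in DESeq2 or limma-voom. Tfrc was also the 1 member with groups that did not overlap, against 8.45% of all genes.

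The remaining members spread across 0 in this comparison. Slc11a2 held 30, 73.8 and 89.7 CPM in maintenance, a range that took in most food-trained libraries, and its log2 difference of -0.17 had a 95% interval of -0.89 to 0.55. Fth1 (683, 523 and 541 CPM in maintenance against 834, 643, 519 and 580) differed by -0.15, with an interval of -0.65 to 0.35. Ireb2, the iron regulatory protein that iron removes by degradation, held 40.9, 108 and 57.4 CPM against 42.7, 73.2, 53.6 and 24 CPM, a difference of 0.51 with an interval of -0.28 to 1.29. Slc40a1 was set by single libraries: maintenance replicate 3 held 32.2 CPM and its partners 5.67 and 3.67 CPM, and without that replicate the difference went from 0.37 to -1.2. A p that misses the threshold does not show that these levels were alike.

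Abstinence against maintenance compared animals with the same cocaine sessions. Tfrc was 1.8-fold higher in abstinence (log2 0.85, SE 0.3), and Slc11a2 1.88-fold higher (log2 0.91, SE 0.37), each with groups that did not overlap. These were 2 of 7 members, where 12.2% of all genes did not overlap. Neither passed edgeR's quasi-likelihood test over all 19060 genes, with an adjusted p of 0.417 for Tfrc and 0.478 for Slc11a2. For Slc11a2 the log2 difference was 0.57 without maintenance replicate 1 and 1.21 without maintenance replicate 3. For Tfrc it was 0.7 without abstinence replicate 1 and 1.02 without abstinence replicate 3. Of the 7 members 0 passed in edgeR (0.178% of all genes did), 2 had an unadjusted p under 0.05 (1890 of 19060 genes did), and 0 passed in DESeq2 or limma-voom. This comparison shares its abstinence libraries with the contrast that chose the members, and is no independent support for it.

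The storage and sensing members did not separate between abstinence and maintenance. Fth1 held 605, 563, 499 and 356 CPM in abstinence and Ftl1, the light chain, 287, 317, 245 and 194 CPM, each overlapping maintenance. Their log2 differences were -0.21 (adjusted p = 0.983 by edgeR) for Fth1 and -0.38 (0.866) for Ftl1. Aco1, whose protein is a cytosolic aconitase when it carries an iron-sulfur cluster, held 12.7, 18.7, 18.7 and 26.8 CPM in abstinence and 6.02, 16.2 and 8.39 CPM in maintenance. That was a difference of 0.9 with an SE of 0.64 and an edgeR adjusted p of 0.798. In abstinence Slc40a1 held 23.5, 23.8, 18.7 and 7.37 CPM, inside the maintenance range, and differed by 0.4 with an SE of 0.88. Ireb2 held 74.1, 47, 67 and 65.9 CPM in abstinence and differed by -0.12, and its sign changed under several alternatives.

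**Figure D3:**
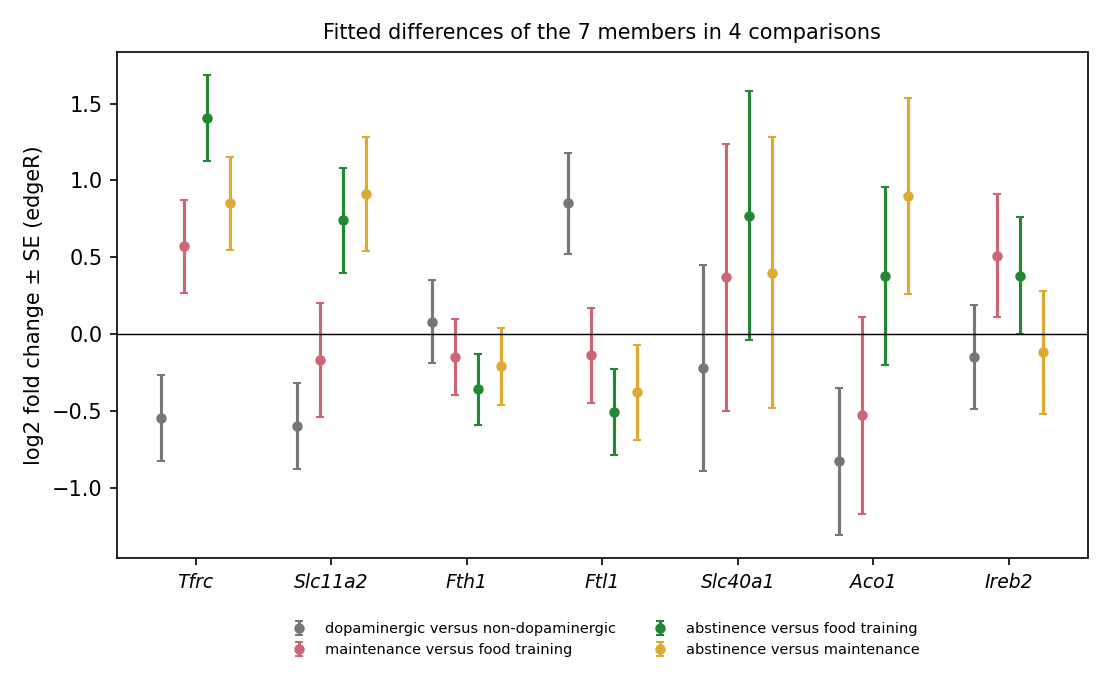
Fitted log2 fold change ± SE (edgeR) of each member in the 4 comparisons, first group minus second. Tfrc lies above 0 in the 3 comparisons between stages (0.57, 1.41 and 0.85) and below 0 between the sorted populations (-0.55). Abstinence against food training is the contrast that chose the members and carries no test; no member passed an adjusted p of 0.05 in the other 3.

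Food-trained dopaminergic and non-dopaminergic nuclei were compared to ask how iron handling differs between the populations. None of the 7 members separated them: 0 passed in edgeR, where 12.8% of all 19786 genes did (3.92% with the replicate number as a block), and 0 had groups that did not overlap, where 26.1% of all genes did not. Of the members 1 had an unadjusted p under 0.05, where 4813 of 19786 genes did, and 0 passed in DESeq2 or limma-voom. Both uptake genes leaned to the non-dopaminergic side, with a log2 difference of -0.55 (SE 0.28; adjusted p = 0.281 by edgeR) for Tfrc and -0.6 (SE 0.28; 0.232) for Slc11a2. Slc11a2 held 130, 77.5, 108 and 128 CPM in non-dopaminergic nuclei, and like Tfrc it was lower in dopaminergic nuclei in 3 of 4 pairs of libraries with the same number.

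Of the ferritin chains, the light chain had the larger fitted difference between the populations; the difference between the chains was not tested. Ftl1 held 606, 262, 273 and 337 CPM in dopaminergic and 212, 303, 152 and 159 CPM in non-dopaminergic nuclei, a log2 difference of 0.85 (SE 0.33; adjusted p = 0.153 by edgeR), or 0.5 without dopaminergic replicate 1. Fth1 held 513, 926, 498 and 514 CPM in non-dopaminergic nuclei and differed by 0.08 (SE 0.27; 0.897). Aco1 was at 25.2, 34.7, 22.3 and 23.1 CPM in non-dopaminergic nuclei and at 30, 7.95, 7.95 and 13 CPM in dopaminergic nuclei, where replicate 1 alone reached the other group's range. Its difference of -0.83 (edgeR adjusted p = 0.352) became -1.44 with an adjusted p of 0.035 without food-trained dopaminergic replicate 1. Slc40a1, the iron exporter, held 17.8, 11.7, 1.52 and 11.7 CPM in dopaminergic and 11.9, 12.4, 15.5 and 10.4 CPM in non-dopaminergic nuclei, which overlapped. Ireb2 held 41.5, 73.1, 50.4 and 51.1 CPM in non-dopaminergic nuclei, inside the dopaminergic range. Slc40a1 differed by -0.22 (SE 0.67) and Ireb2 by -0.15 (SE 0.34), with edgeR adjusted p of 0.887 and 0.858.

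The ratio of Fth1 to Ftl1 counts within a library does not depend on how libraries are scaled. It was 1.38, 2.45, 1.91 and 1.72 in food-trained dopaminergic nuclei and 2.42, 3.05, 3.29 and 3.23 in non-dopaminergic nuclei. The dopaminergic library was the lower in 4 of 4 pairs, although dopaminergic replicate 2 just exceeded non-dopaminergic replicate 1. Maintenance (1.86, 1.94 and 1.44) and abstinence (2.11, 1.78, 2.04 and 1.83) stayed within the food-trained dopaminergic range. Transcript lengths are not divided out, so the ratio compares libraries and not the amounts of the chains, and it was examined after the values were seen. The longest transcripts are 50% GC for Fth1 and 58.1% for Ftl1, so the ratio is not free of a library's GC slope. The part of the GC slopes in the ratio was not tested. How reads from processed ferritin pseudogenes were treated is not given in the sources used here, so Fth1 and Ftl1 levels are uncertain; the 7 Fthl17 rows of the table held 0 counts in all 15 libraries.

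**Figure D4:**
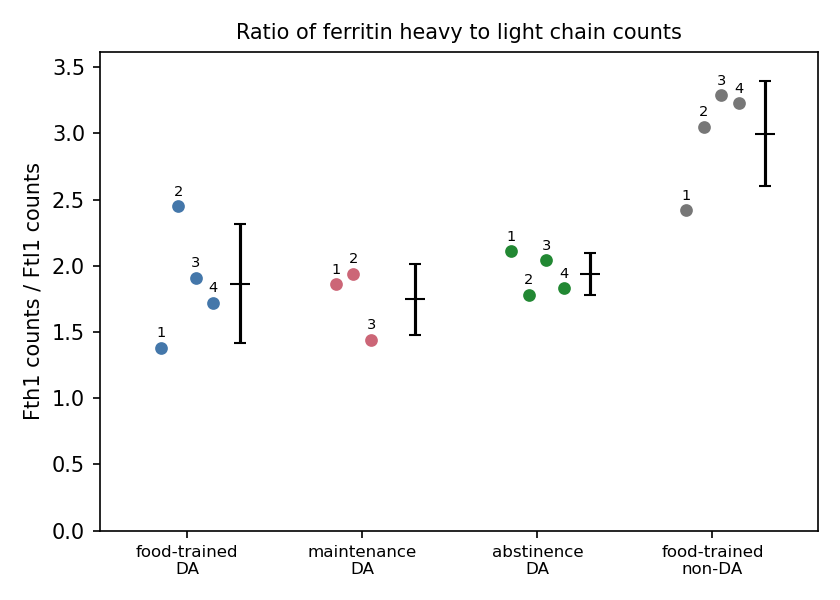
Ratio of Fth1 to Ftl1 counts in each of the 15 libraries, numbered by replicate, with the group mean ± SD beside the points. The non-dopaminergic libraries run from 2.42 to 3.29 and the 11 dopaminergic libraries from 1.38 to 2.45.

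The members were set among 92 genes of 7 iron lists, all in the table, 85 of them tested between the populations. There 6 passed edgeR's test without the replicate block, 1 higher and 5 lower in dopaminergic nuclei, where 3.63% and 9.17% of all genes did. The median log2 difference was 0.01 against -0.21 over all genes tested. In transferrin cycle and uptake 2 of 16 passed, both lower. Trf, transferrin itself, held 342, 481, 191 and 382 CPM in dopaminergic and 4680, 8260, 1880 and 4160 CPM in non-dopaminergic nuclei, a log2 difference of -3.75 (SE 0.5; adjusted p = 0.00593 by edgeR). Lcn2 carries iron bound to siderophores. It had 0 counts in all 4 dopaminergic libraries and 1.56 ± 1.12 CPM in non-dopaminergic ones (edgeR adjusted p = 0.00835). Against a floor of 3 counts per library this was 20.1-fold lower, a bound that takes no account of how many genes a library detected. Food-trained dopaminergic libraries had counts for 14841 to 18372 genes and non-dopaminergic ones for 22733 to 23886. Among exporters, 1 of 3 passed: Cp, the ferroxidase ceruloplasmin, at 2.81 ± 1.42 against 41.1 ± 14.6 CPM (log2 -3.86, SE 0.48; adjusted p = 0.00439 by edgeR). Oligodendrocytes make transferrin and astrocytes make ceruloplasmin. The summed astrocyte markers ran from 797 to 983 CPM in dopaminergic and from 1730 to 3250 CPM in non-dopaminergic food-trained libraries, and the part of glial RNA in these differences was not tested.

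In the heme list 3 of 19 passed. Pgrmc1, a heme-binding membrane protein, was higher in dopaminergic nuclei (1060 ± 221 against 476 ± 152 CPM; log2 1.17, SE 0.29; adjusted p = 0.0278 by edgeR). Without food-trained dopaminergic replicate 2 its adjusted p was 0.0534, and without non-dopaminergic replicate 1 or 2 it was 0.0814 or 0.0569. Cpox, an enzyme of heme synthesis, was lower (27 ± 5.33 against 67 ± 20.2 CPM; log2 -1.3; edgeR adjusted p = 0.0115), as was Slc48a1, a heme transporter (158 ± 36.9 against 267 ± 39.6 CPM; log2 -0.75; 0.0463). Slc48a1 missed the threshold in 7 of 8 fits that left out 1 library, with adjusted p of 0.0555 to 0.158. Under the replicate block, which pairs libraries of the same number, Lcn2 (0.175), Cpox (0.0962) and Slc48a1 (0.055) no longer passed, Trf, Cp and Pgrmc1 still did, and Pcbp4, an iron chaperone of the storage list, was gained (log2 -1.07; adjusted p = 0.0407, from 0.207 by edgeR without the block). The count of 6 became 10 without food-trained dopaminergic replicate 1, 3 or 4, and 4 without non-dopaminergic replicate 2.

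**Figure D5:**
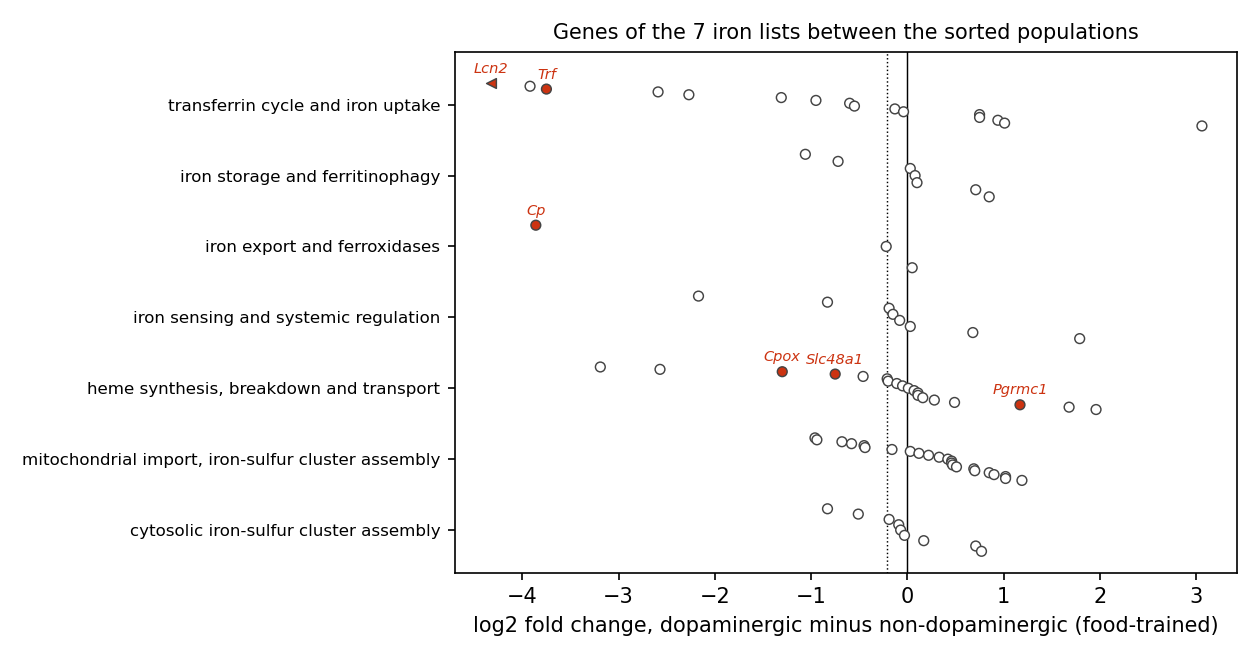
Log2 fold change between food-trained dopaminergic and non-dopaminergic nuclei for the 85 tested genes of the 7 iron lists, 1 row per list. Filled red symbols passed edgeR's adjusted p of 0.05, the triangle is a bound for a gene at 0 counts in dopaminergic nuclei, and the dotted line is the median of all tested genes (-0.21).

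In the lists of storage, sensing, and mitochondrial and cytosolic iron-sulfur cluster assembly, 0 of 7, 0 of 8, 0 of 23 and 0 of 9 tested genes passed between the populations. The mitochondrial list had a median of 0.42, with 16 genes above 0 and 7 below, and its abundant genes Hspa9 and Iscu were at log2 differences of 0.46 and 0.22. Ciapin1 (-0.09), Narfl (-0.03) and Ciao1 (0.17) led the cytosolic list by CPM. Fbxl5, which marks Ireb2 protein for degradation, stood at 80.7 ± 17.7 against 79.6 ± 6.59 CPM, and Hif1a at 51 ± 12.4 against 58.6 ± 9.5 CPM. Ppox was at a difference of 0.11, Mcoln1, an endolysosomal channel, at 0.75 (adjusted p = 0.12 by edgeR) and Slc22a17, a receptor for the Lcn2 protein, at 1.01 (0.147).

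Between stages 82 list genes were tested. By edgeR 0 passed between maintenance and food training (5 at an unadjusted p under 0.05; 4 by DESeq2) and 0 between abstinence and maintenance (9 unadjusted; 3 by DESeq2). Over all 19060 genes the unadjusted counts were 2215 and 1890. Between abstinence and food training the median over the lists was 0.15 against 0.04 over all genes. The uptake list, which holds Tfrc and Slc11a2, had 11 of 14 genes above 0 and a median of 0.42, and the storage list 2 of 7 above 0 and a median of -0.15. These shares describe the contrast that chose the members and carry no test. Between abstinence and maintenance the uptake list had 8 of 14 genes above 0 (median 0.44) and the storage list 4 of 7 (median 0.67). Between maintenance and food training they had 7 of 14 (median -0.06) and 1 of 7 (median -0.7).

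Genes were ranked by how closely their log2 CPM followed that of Tfrc, among 8409 genes with a mean of at least 20 CPM. Over all 15 libraries the highest Pearson r were those of Mfsd7b (0.799), Btf3l4 (0.783), Impdh2 (0.782), Trim37 (0.782) and H2afv (0.77). Mfsd7b is the older symbol of Flvcr1, which encodes a heme exporter in the heme list. Over the 11 dopaminergic libraries they were Epc1 (0.889), Glud1 (0.881), Nprl3 (0.87), Hbs1l (0.865) and Btf3l4 (0.862). Of the members, Slc11a2 followed Tfrc at 0.592 over the dopaminergic libraries, Slc40a1 at 0.559, Aco1 at 0.479, Ireb2 at 0.272, Ftl1 at -0.206 and Fth1 at -0.31. The points share their libraries' depth, base composition and stage, and the ranking is a description.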

How the data were processed

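Nuclear RNA of 15 sorted pools was sequenced from libraries made with a low-input kit. The authors deposited raw read counts per gene, and a second table, named as normalized, whose 10 columns differed from those counts in 0 cells and was not used further. Per the submitters' processing notes the tools were Trim Galore 0.6.7, cutadapt 1.18, STAR 2.7.10a, StringTie 2.1.5 and DESeq2 1.38.3, with builds mm10 and GRCm38; strand setting and annotation are not given in the sources used here. Counts were tested here with edgeR 4.0.16 (quasi-likelihood F test, filterByExpr, TMM) in R 4.3.3, in 1 fit for the 2 food-trained populations and 1 for the 3 dopaminergic stages, with Benjamini-Hochberg adjustment over all tested genes and a threshold of 0.05. CPM are TMM-scaled. SEs were derived from the fold change and its F, and 95% intervals from the SE. DESeq2 1.42.0, limma 3.58.1 (voom), other scaling and filters, GC correction, blocks and left-out libraries were alternatives. On simulated data, 200 genes per comparison were changed by 3 on the log2 scale. Of these, 78.5% in the population comparison (18454 genes) and 84.5% in the stage comparison (17921 genes) were recovered. In the main fits the largest log2 difference of a member was 1.41, for Tfrc between abstinence and food training. Recovery of differences smaller than 3 was not tested.

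The members and gene lists were chosen with earlier results of these data known. Named genes were the members, list genes past the threshold, the 3 most abundant genes per list, and the 5 genes most like Tfrc over all and over dopaminergic libraries, predicted genes left out; 1 gene that this rule names is not reported here. Libraries of the same number in the food-trained populations deviated together (correlations 0.119, 0.142, 0.248 and 0.209 for replicates 1 to 4), so the numbers pair them. The main fit left this pairing out and called 2534 genes between the populations, where the fit with the replicate block called 775. P-values measure the spread between pools of 2 mice. Counts carried no molecular identifiers, so the bound on Lcn2 covers counting error only.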

Additional observations from a re-analysis of the deposited data

Results flagged for a closer look

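Fth1 in non-dopaminergic replicate 2 was at 926 CPM, where the other 3 libraries of the group lay at 498 to 514 CPM. Its gap to the nearest library was 0.963 of the group's range. It was the 1 library that stood out among 21 pairs of a member and a group of 4, and chance gives about 5% of such groups. The same library had the low GC slope (-0.0248) and the highest summed markers of its group for 3 glial types. These were 24500 CPM for oligodendrocytes (9760 to 15900 in its partners), 3710 CPM for microglia (1880 to 2310) and 3250 CPM for astrocytes (1730 to 2730). The part of GC and of glial RNA in its Fth1 level was not tested.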

How the results depend on the processing

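Tfrc kept its direction under the alternatives run in all 4 comparisons, with log2 differences of 1.23 to 1.61 between abstinence and food training. Counts of iron-list genes passing moved most with the tool: with DESeq2 they were 12 between the populations, 4 between maintenance and food training, 3 between abstinence and maintenance and 1 between abstinence and food training, the contrast that chose the members, from which nothing is read, and limma-voom gave 10 between the populations. Leaving out 1 library gave 4 to 10 there. Over all genes DESeq2 called 4734 between the populations, 1157 between maintenance and food training, 176 between abstinence and food training and 921 between abstinence and maintenance, where edgeR called 2534, 25, 0 and 34; limma-voom called 4266 and 9 in the first 2, and the replicate block left 775, 0, 0 and 2. The cause of these differences was not tested.

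No member had passed in edgeR, so the sign changes below concern differences that were not called. Between maintenance and food training, Slc40a1 was -0.04 in limma-voom, -0.11 with the replicate block and -0.44 with GC correction and block; Ftl1 was 0.19 with GC correction and 0.15 with the block added. Between abstinence and maintenance, Ireb2 was 0.16 with the block, 0.24 with GC correction and 0.51 with both. A term for the libraries of low GC slope covers all 3 maintenance libraries, so it was estimated from non-dopaminergic replicate 2 against its 3 partners, and that 1 library sets its values. With it Slc11a2 was 0.47 and Ireb2 -0.13 between maintenance and food training, and Ireb2 was 0.51, Fth1 0.68 and Ftl1 0.44 between abstinence and maintenance; nothing is read from these. Leaving out 1 library gave, between the populations, -0.07 to 0.35 for Fth1, -0.59 to 0.17 for Slc40a1, -0.42 to 0.08 for Ireb2 and -1.44 to -0.6 for Aco1. Between maintenance and food training it gave -0.3 to 0.21 for Ftl1, -1.07 to 0.09 for Aco1, -0.47 to 0.17 for Slc11a2, -0.02 to 0.78 for Ireb2 and -1.2 to 0.79 for Slc40a1, and between abstinence and maintenance -0.02 to 1.97 for Slc40a1 and -0.4 to 0.4 for Ireb2.

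Stage libraries share only a replicate number (correlations of -0.316 to 0.104), and the block changed no member's call. Spearman's rho kept 2 of the 5 genes most like Tfrc over 15 libraries and 1 of 5 over the dopaminergic ones. With 3 or 4 pools a group, the SE of a member's log2 difference was 0.23 to 0.88, and this spread limits what could be detected.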
